A study of Rattus norvegicus with 6 samples.

Results

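The growth factors that drive the growth and maturation of blood and lymph vessels, and the neuropilins that help receive them, were read in rat liver scarred by blockage of the bile duct. The set held 8 genes of the 15443 that the array could name: the ligands Vegfa, Vegfb, Vegfc, Pgf, Angpt1 and Angpt2, and the co-receptors Nrp1 and Nrp2. A gene entered by its identity, through the transcript record its probes were designed on, and no cut on a measured value was applied. The set was chosen with earlier results of these data known. Together the 8 genes had 12 probes. The study compared liver blocks from 3 normal rats, the control group, with blocks from 3 rats in which ligation of the bile duct had produced hepatic fibrosis, with 1 array of total RNA for each rat. Bile duct ligation stops the outflow of bile, and scar tissue and new small ducts then spread from the portal tracts. Strain, sex, age and the time between ligation and sampling are not given in the sources used here, and neither is whether the control rats had a sham operation. The model was judged on collagen stains, serum chemistry and liver weight, and rats for the arrays were then selected from it.

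Vascular endothelial growth factor A, encoded by Vegfa, binds the receptors Flt1 and Kdr on endothelial cells and keeps the fenestrated sinusoids of the liver in place. Placental growth factor, encoded by Pgf, and Vegfb bind Flt1 and not Kdr, Vegfc acts on lymphatic vessels through Flt4, and the angiopoietins Angpt1 and Angpt2 act on the receptor Tek, Angpt1 as an activator and Angpt2 as a ligand that can oppose it. Neuropilins bind several of these growth factors as co-receptors, and they also receive class 3 semaphorins together with plexins.

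Levels are processed spot intensities on the log2 scale minus the 75th percentile of the same array, so 0 is a spot at that percentile and a difference of 1 is a doubling. Different probes bind with different strength, so group differences were read between arrays, probe by probe. Levels of different probes were used together to choose 1 probe per gene, to sum marker lists and to set a detection bound for Pgf. That percentile stood at 4016 ± 330 intensity units (SD, n = 3) in the normal group and 5453 ± 833 (SD, n = 3) in the fibrosis group, and 68.8% ± 1.45 (SD, n = 3) and 72.8% ± 4.70 (SD, n = 3) of spots were well above background. The scanner software had marked 24.0% to 35.2% of spots on normal arrays and 18.8% to 33.0% on fibrosis arrays as non-uniform or as population outliers. Each member was therefore tested once with marked spots left out and once with marked spots kept, and the levels printed here keep them. As a check of the tissue label, 8 of 8 hepatocyte markers were well above background on all 6 arrays.

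Pgf and Angpt1 rose in fibrotic liver, Pgf from below background and Angpt1 from a faint signal. Vegfa read lower with all 4 of its probes. Under each handling of marked spots 1 of them passed the test, but it was a different probe each time. Vegfc and Nrp1 were higher on every fibrosis array than on any normal array without passing the test. Vegfb, Angpt2 and Nrp2 stayed too close to background to be tested. With marked spots left out, 3 of 6 tested member probes were called at an adjusted p under 0.05, where 20.9% of all 11608 tested probes were called (15.8% higher and 5.07% lower). With marked spots kept, 3 of 8 were called, against 19.1% of 19731 (12.4% higher and 6.79% lower). The groups did not overlap for 6 of 6 tested member probes with marked spots left out, against 40.7% of all probes, and for 7 of 8 with them kept, against 38.4%. A probe such as that of Pgf could enter the test only through its fibrosis arrays, so these counts describe the members and support nothing further.

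Pgf encodes placental growth factor, a ligand that is scarce in most healthy adult tissues. Its probe A_64_P120634 gave processed signals of 11.48, 13.9 and 14.5 on normal arrays 1 to 3 and of 120, 209 and 180 on fibrosis arrays 1 to 3. On the log2 scale these were -8.41, -8.30 and -8.02 against -5.75, -4.54 and -4.83. No normal array was well above background and all 3 fibrosis arrays were, with both spots on each, and the groups lay far apart. The difference was 3.20 (SE 0.35, limma adjusted p = 0.000417), against a normal level that was not above background. The mean of the fibrosis arrays was 4.39-fold above the dimmest signal that still counted as above background on the normal arrays. That ratio is not a strict lower limit. Some spots that did not count as above background were brighter, such as 1 Angpt1 spot at -5.98 on normal array 2. The call holds for the processed signal only. With normexp, a background correction that adds an offset of 50 to every spot, the difference shrank to 0.87. The call was then lost (limma adjusted p = 0.0630). A second Pgf probe, A_64_P120640, failed to stand well above background on each of the 6 arrays, at -8.25, -8.19 and -7.95 in normal and -9.24, -8.04 and -7.93 in fibrotic liver. The increase of Pgf therefore rested on 1 of its 2 probes. In blocks of whole liver, a change in cell numbers and a change in RNA per cell cannot be told apart.

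The region around the start of Pgf is shown with that of its receptor gene Flt1, because both transcripts rose in the same 3 livers (the receptor values are given with the other receptors). Each window of 300 bases runs from 250 bases before the annotated start to 50 bases after it, 5′ to 3′ in the direction of the gene, from RefSeq on the GRCr8 assembly. The Pgf window is chr6:110557698-110557997 on the minus strand, and the Flt1 window is chr12:12333180-12333479 on the plus strand. Capitals mark the hypoxia core (ACGTG or GCGTG), the GC box (GGGCGG) and the TATA box (TATAAA), each searched on both strands, so that CACGC and CCGCCC are the same motifs read on the other strand.
Pgf: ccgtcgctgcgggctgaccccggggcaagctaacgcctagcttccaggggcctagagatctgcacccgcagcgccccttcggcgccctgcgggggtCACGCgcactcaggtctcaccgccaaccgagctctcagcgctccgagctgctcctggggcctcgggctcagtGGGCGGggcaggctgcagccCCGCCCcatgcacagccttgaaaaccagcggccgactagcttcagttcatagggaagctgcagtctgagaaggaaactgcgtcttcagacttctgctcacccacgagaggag
Flt1: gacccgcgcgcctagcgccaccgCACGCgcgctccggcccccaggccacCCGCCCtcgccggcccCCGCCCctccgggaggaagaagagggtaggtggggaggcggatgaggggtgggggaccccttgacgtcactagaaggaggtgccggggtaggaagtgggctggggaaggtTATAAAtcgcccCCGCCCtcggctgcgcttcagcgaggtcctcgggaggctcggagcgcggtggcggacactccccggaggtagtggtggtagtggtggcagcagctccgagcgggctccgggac
The Pgf window held 1 hypoxia core at -154 and 2 GC boxes at -82 and -62, counted from the start to the first base of the motif. The Flt1 window held 1 hypoxia core at -227, 3 GC boxes at -201, -185 and -63, and 1 TATA box at -75. Among 33469 rat windows of the same length, 41.6% held a hypoxia core, 33.1% a GC box and 14.2% a TATA box. In the windows of the member and receptor genes, no base lay in more than 1 motif. A match of letters is a description and not a binding site.

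Angpt1, the activating ligand of Tek that is made by cells around the vessel wall, gave processed signals of 104, 83.3 and 65.9 on the normal arrays and of 971, 654 and 1152 on the fibrosis arrays. Its log2 levels were -5.23, -5.74 and -5.86 in normal and -2.72, -2.89 and -2.16 in fibrotic liver. Fibrosis 3 was the highest array, and every fibrosis array was more than 2 log2 units above every normal one. The difference of 3.02 (SE 0.30, limma adjusted p = 0.000294) is an 8.12-fold increase. On normal arrays 2 and 3 only 1 of the 2 Angpt1 spots was well above background, so the normal level was itself faint. All 18 alternative settings kept the call, with differences from 1.99 under normexp to 3.33.

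Angpt2, the angiopoietin that can oppose Angpt1 and that endothelial cells release when vessels are remodelled, did not qualify for the test. Its levels were -6.33, -8.19 and -7.71 in normal and -5.56, -6.46 and -5.84 in fibrotic liver. It was well above background on normal array 1 and on fibrosis arrays 1 and 3, and the groups overlapped because normal 1 exceeded fibrosis 2. With no filter on dim probes the difference was 1.45 (SE 0.50, limma adjusted p = 0.130). Leaving out fibrosis 2 let the probe into the test, at 1.71 (limma adjusted p = 0.0697).

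**Figure D1:**
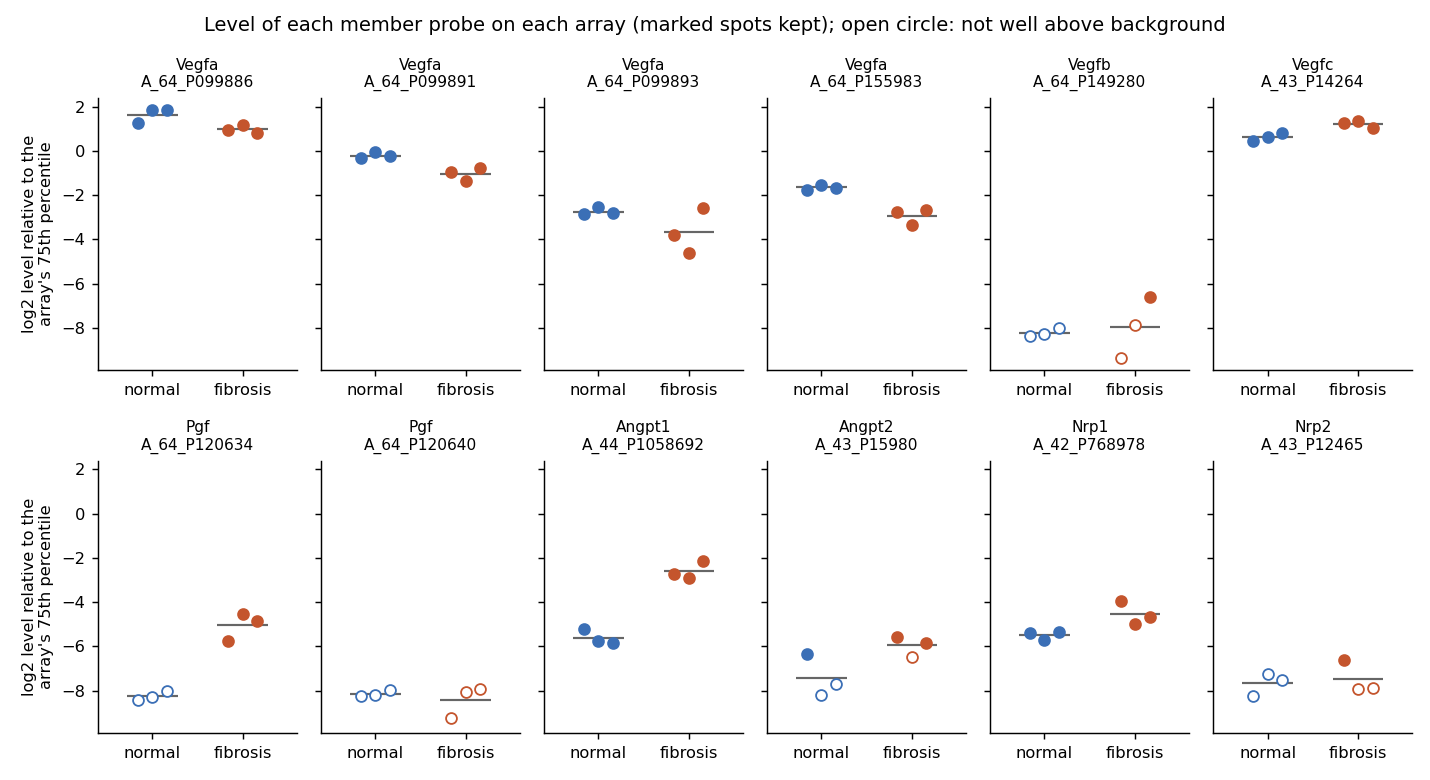
Level of each of the 12 member probes on each array, in log2 units relative to the 75th percentile of the array, for 3 normal and 3 fibrosis arrays. Points are arrays, open circles are arrays on which the probe was not well above background, and lines are group means. The Pgf probe A_64_P120634 goes from 3 open circles near -8 to filled points between -5.75 and -4.54, and Angpt1 from a mean of -5.61 to -2.59. Heights of different probes cannot be compared.

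Vegfa, the main growth factor of the sinusoidal and vascular endothelium, was read by 4 probes, 2 designed on each of 2 transcript records of the gene. Probe A_64_P155983 gave -1.76, -1.53 and -1.66 in normal and -2.74, -3.37 and -2.67 in fibrotic liver, with fibrosis 2 the lowest and no overlap. With marked spots kept it fell by 1.28 (SE 0.27, limma adjusted p = 0.0129), a 2.42-fold decrease. With marked spots left out it had a value on 1 normal array and 2 fibrosis arrays, and it was not tested.

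Probe A_64_P099893, which had a single spot, gave -2.84, -2.55 and -2.83 in normal and -3.82, -4.60 and -2.60 in fibrotic liver. Fibrosis 3, whose spot was marked, lay within the normal range, and the other two fibrosis arrays lay below it. Without that spot the change was -1.47 (SE 0.34, limma adjusted p = 0.0200), from 3 normal and 2 fibrosis arrays. With it the difference was -0.93 (SE 0.46, limma adjusted p = 0.209).

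Probe A_64_P099891 gave -0.34, -0.06 and -0.23 in normal and -0.97, -1.38 and -0.79 in fibrotic liver. The groups did not overlap, and the difference of -0.83 missed the threshold under both handlings (limma adjusted p = 0.0563 with marked spots left out and 0.0530 with them kept). Probe A_64_P099886 gave 1.25, 1.84 and 1.83 against 0.94, 1.19 and 0.83. These groups did not overlap either, with a difference of -0.66 (SE 0.26, limma adjusted p = 0.128) and marked spots kept.

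All 4 Vegfa probes stayed below 0 in every alternative run, from -0.35 to -1.95, while the calls did not hold. The call of A_64_P155983 was lost when arrays were scaled on E1A control probes (-0.97, limma adjusted p = 0.146) or left without normal 2 (-1.22, 0.0630) or normal 3 (-1.28, 0.0608). The call of A_64_P099893 was lost on E1A scaling (-1.15, limma adjusted p = 0.153) and without any 1 of the normal arrays (-1.38 to -1.52, 0.0548 to 0.0782), and it had too few arrays to be tested without fibrosis 1 or 2. With marked spots kept, A_64_P155983 was called in 11 of 16 alternatives, A_64_P099891 in 5 of 16, and A_64_P099893 and A_64_P099886 in 1 each.

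The start regions of Vegfa and of its main signalling receptor gene Kdr, which also read lower in all 3 fibrotic livers, are shown next, in the same source, direction and window as above. The upstream Vegfa start lies in chr9:22452604-22452903 on the plus strand and the Kdr start in chr14:32571813-32572112 on the plus strand, with the same motifs in capitals.
Vegfa: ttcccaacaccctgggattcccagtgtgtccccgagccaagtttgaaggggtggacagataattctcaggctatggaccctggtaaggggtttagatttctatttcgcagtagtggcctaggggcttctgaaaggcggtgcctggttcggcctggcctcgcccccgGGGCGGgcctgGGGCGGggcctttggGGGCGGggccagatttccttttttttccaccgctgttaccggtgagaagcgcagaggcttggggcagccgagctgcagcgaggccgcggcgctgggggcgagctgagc
Kdr: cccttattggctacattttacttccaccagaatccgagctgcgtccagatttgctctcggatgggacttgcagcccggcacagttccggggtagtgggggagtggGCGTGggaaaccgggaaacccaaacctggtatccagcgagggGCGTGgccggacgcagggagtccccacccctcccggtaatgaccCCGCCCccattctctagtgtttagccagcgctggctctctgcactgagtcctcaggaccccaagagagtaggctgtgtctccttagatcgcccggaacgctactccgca
The Vegfa window held 3 GC boxes, at -84, -73 and -58, and 0 hypoxia cores. Sequence more than 250 bases upstream of the start was not searched. A second annotated Vegfa start on the same chromosome held none of the 3 motifs. The Kdr window held 2 hypoxia cores, at -145 and -103, and 1 GC box at -59. Of the 8 member genes, 6 had a window in the table used, and Angpt1 and Angpt2 had none.

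Vegfc, the growth factor of lymphatic vessels, gave 0.47, 0.63 and 0.82 in normal and 1.28, 1.38 and 1.04 in fibrotic liver. Every fibrosis array exceeded every normal array. With marked spots left out, which dropped fibrosis 2, the difference was 0.57 (SE 0.29, limma adjusted p = 0.228). With marked spots kept it was 0.60 (SE 0.24, limma adjusted p = 0.121), with a 95% interval of 0.06 to 1.14. Of the alternatives with marked spots kept, cyclic loess scaling took it past the threshold (0.80, limma adjusted p = 0.0471).

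Vegfb, a ligand of Flt1, was well above background on fibrosis 3 alone, through 1 of its 2 spots there. Its levels were -8.38, -8.29 and -8.0 in normal and -9.35, -7.85 and -6.61 in fibrotic liver. Fibrosis arrays lay both below and above the normal ones, and the probe was not tested.

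**Figure D2:**
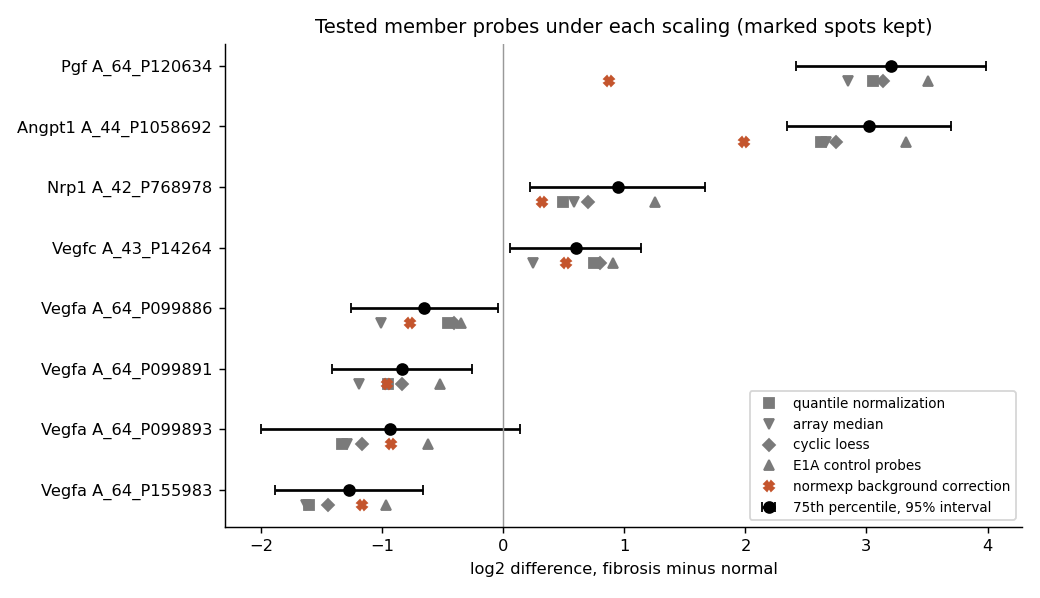
Difference between fibrotic and normal liver for the 8 tested member probes, in log2 units on the horizontal axis, with marked spots kept. Black points are the differences with the 75th percentile scaling and their 95% intervals, and the symbols under each are the same difference with other scalings or with normexp background correction. Pgf moves from 3.20 to 0.87 under normexp, while the 4 Vegfa probes stay below 0 and the other probes above 0 under every setting drawn.

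Nrp1 encodes neuropilin 1, a co-receptor for Vegfa on endothelium that other cells also carry. Its probe was printed 10 times on each array. The levels were -5.39, -5.72 and -5.35 in normal and -3.95, -5.0 and -4.69 in fibrotic liver. Fibrosis 1 was the highest, and no fibrosis array fell into the normal range. The spots of 1 array varied with an SD of 0.13 to 0.44. The difference between groups was 0.93 (SE 0.32, limma adjusted p = 0.0744) with marked spots left out and 0.94 (0.0749) with them kept, a 1.92-fold higher level with a 95% interval of 0.22 to 1.67 on the log2 scale. Leaving out fibrosis 2 took it past the threshold (1.16, limma adjusted p = 0.0445), and normexp reduced it to 0.30 (0.419).

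**Figure D3:**
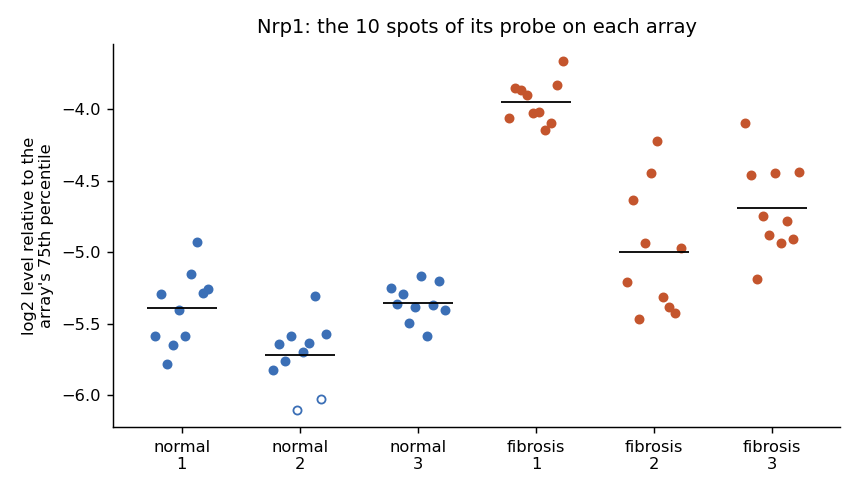
The 10 spots of the Nrp1 probe on each array, in log2 units relative to the 75th percentile of the array. Points are spots, the 2 open circles on normal array 2 are spots not well above background, and lines are array means. The spots of fibrosis 1 lie between -4.15 and -3.66, above every spot of the normal arrays, while the lowest spots of fibrosis 2 reach -5.47 and lie within the normal range.

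Nrp2, the neuropilin of lymphatic and venous endothelium, was well above background on fibrosis 1 alone. Its levels were -8.24, -7.23 and -7.50 in normal and -6.61, -7.93 and -7.87 in fibrotic liver. The groups overlapped, and the probe was not tested. For both neuropilins fibrosis 1 was the highest of the 6 arrays. That array also had the highest 75th percentile, at 6401 intensity units, and the largest share of spots well above background, at 78.0%.

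The arrays of fibrosis 2 and 3 lay in the second row of the slide, and all others in the first. With the row as a term the fit compares fibrosis 1 with the 3 normal arrays of its own row. The differences were then 2.50 for Pgf (limma adjusted p = 0.00889), 2.89 for Angpt1 (0.0110) and 1.51 for Nrp1 (0.0478), all called with marked spots left out. For Pgf, which was not above background on any normal array, fibrosis 1 alone was 2.69-fold above the dimmest signal that counted as above background there. Vegfc stood at 0.69 (limma adjusted p = 0.369), and the Vegfa probes A_64_P099891 and A_64_P099893 at -0.76 (0.312) and -1.08 (0.154). With marked spots kept, Nrp1 stood at 1.54 (limma adjusted p = 0.0528) and the Vegfa probe A_64_P155983 at -1.09 (0.181).

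The receptors of these ligands were read with 1 probe per gene and marked spots kept. In that fit 25% of 10864 genes were called (15.8% higher and 9.12% lower), the groups did not overlap for 42.9%, and the median difference over all genes was -0.07. An unadjusted p under 0.05, in either direction, was reached by 4041 of these genes. Of the 5 receptor genes Flt1, Kdr, Flt4, Tek and Tie1, 1 rose and 1 fell, with a median difference of 0.46, and 3 of the 5 (Flt1, Kdr and Tie1) showed no overlap between groups. Flt1, the receptor of Vegfa, Vegfb and Pgf, gave -5.65, -5.51 and -5.76 in normal and -3.73, -2.93 and -2.96 in fibrotic liver. All fibrosis arrays were higher, by 2.44 (SE 0.28, limma adjusted p = 0.000574), a 5.41-fold increase. All 13 alternatives kept the call, with differences from 1.101 under normexp to 2.74.

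Kdr, the main signalling receptor of Vegfa, gave 3.03, 3.02 and 2.92 in normal and 2.01, 2.47 and 2.23 in fibrotic liver. All fibrosis arrays were lower, and it fell by 0.75 (SE 0.23, limma adjusted p = 0.0429). This call was lost under quantile scaling (-0.39, limma adjusted p = 0.232), cyclic loess (-0.33, 0.321), E1A scaling (-0.45, 0.383) and the row term (-0.98, 0.118), without any 1 of the normal arrays (-0.73 to -0.79, 0.126 to 0.145), and without fibrosis 1 (-0.64, 0.117). In the fit over all probes that was used for the members, the same Kdr probe was not called (limma adjusted p = 0.0575). Flt4, the lymphatic receptor of Vegfc, differed by 0.46 (SE 0.31, limma adjusted p = 0.329), with overlap between the groups. Tie1, the partner of Tek, differed by 0.46 (SE 0.22, limma adjusted p = 0.166) without overlap. Tek, the angiopoietin receptor, gave -5.62, -5.82 and -5.36 in normal and -5.50, -6.25 and -6.97 in fibrotic liver, a difference of -0.64 (SE 0.37, limma adjusted p = 0.251). It was well above background on all 3 normal arrays and on 1 fibrosis array, and the groups overlapped.

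**Figure D4:**
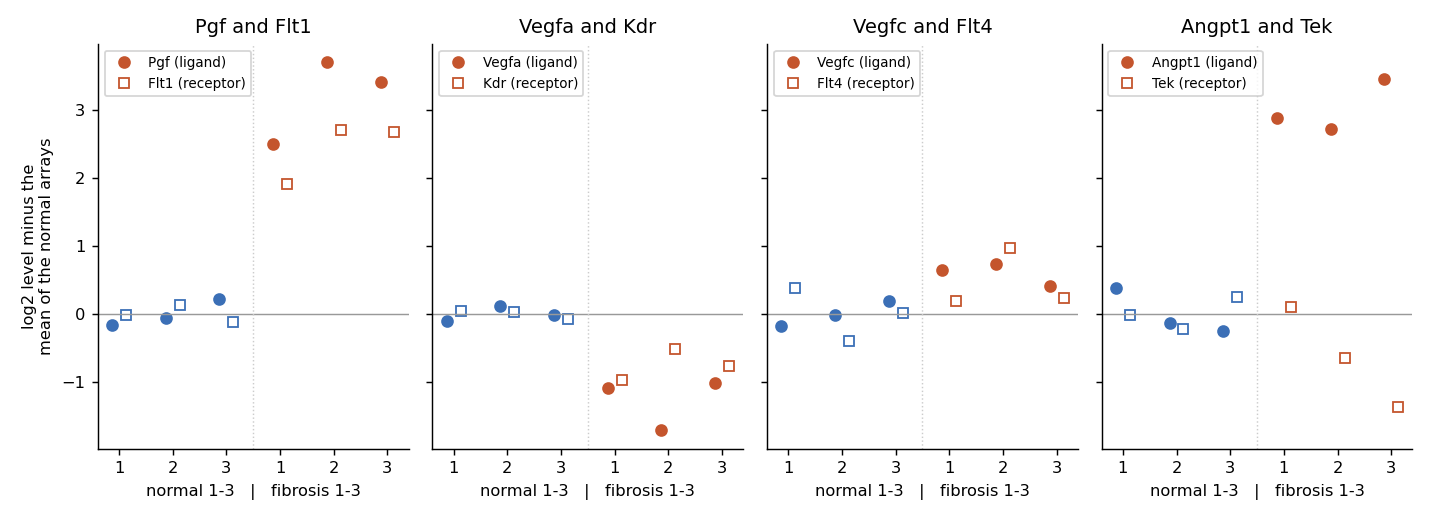
A ligand and a receptor in each panel, as log2 level minus the mean of the normal arrays, for the 3 normal (blue) and 3 fibrosis (orange) arrays. Filled circles are ligands (Vegfa by its probe A_64_P155983, Pgf by A_64_P120634) and open squares are receptors. For Vegfa and Pgf these are the probes called with marked spots kept, and their other probes are not drawn. The Vegfa probe A_64_P099893 stood 0.14 above its normal mean on fibrosis 3, and the second Pgf probe was not above background. Pgf and Flt1 are both high on all 3 fibrosis arrays, Vegfa and Kdr are both low, and Angpt1 is high where Tek ranges from 0.10 above to 1.37 below its normal mean.

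Other growth factors of the family, fixed as a list of 6 (Vegfd, Angpt4 and the 4 platelet-derived growth factors), had 4 tested genes, of which 2 rose and 0 fell, with a median of 0.95. Pdgfa, which acts on mesenchymal cells, gave -0.24, -0.33 and -0.12 in normal and 1.12, 1.35 and 1.48 in fibrotic liver, an increase of 1.55 (SE 0.22, limma adjusted p = 0.00175). Vegfd, a lymphatic growth factor, rose by 1.37 (SE 0.26, limma adjusted p = 0.00602) and all 6 arrays detected it above background. Both were called under all 4 other scalings.

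Class 3 semaphorins, the other ligands of the neuropilins, had 3 tested genes of the 6 on the array, with 2 up, 0 down and a median of 1.37. Sema3b gave -4.90, -5.17 and -5.26 in normal and -2.63, -2.23 and -2.66 in fibrotic liver. That is an increase of 2.61 (SE 0.24, limma adjusted p = 0.000187), and the groups lay apart by more than 2 log2 units. Sema3c rose by 1.37 (SE 0.27, limma adjusted p = 0.00798), a call that quantile scaling ended (0.92, 0.0527). Plexins, the signalling partners of neuropilins, had 2 tested genes of the 4 on the array. Plxna2 fell by 0.96 (SE 0.25, limma adjusted p = 0.0257), which E1A scaling did not keep (-0.65, 0.315), and Plxnb2 differed by -0.04 (0.931).

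Oxygen shortage is a known inducer of Vegfa, and a list of 22 genes that hypoxia induces in many cells was read beside it. Of 19 tested, 6 rose and 5 fell, with a median of 0.28. Egln3, an oxygen-sensing prolyl hydroxylase, rose by 2.54 (SE 0.45, limma adjusted p = 0.00496), and Ndrg1 by 1.91 (SE 0.59, limma adjusted p = 0.0462). The Ndrg1 levels on fibrosis 1 and 2 were -1.76 and -1.77, but fibrosis 3 at -4.11 was close to normal 3 at -4.24. Epo, the red cell hormone erythropoietin, fell by 1.54 (SE 0.41, limma adjusted p = 0.0283), and Pdk1, which restrains pyruvate oxidation, by 1.22 (SE 0.24, limma adjusted p = 0.00803). The counts moved with the scaling, to 3 up and 3 down under quantile or loess scaling, 1 up and 6 down under the array median, and 6 up and 0 down under E1A scaling. The median of the list was -0.07 under quantile and array median scaling, where the median over all genes was -0.11 and -0.42. Of the named genes, Egln3 was called under every scaling. Ndrg1 was lost under quantile, loess and array median scaling, and Epo and Pdk1 under E1A scaling. Among 6 tested hypoxia-inducible factors and their regulators, 0 rose and 0 fell in the limma fit, and 0 had an unadjusted p under 0.05, with a median of -0.50. Several were faint: Hif1a and Epas1 were well above background on 1 fibrosis array each, and Arnt2 and Hif1an on 2 each. The smallest p values belonged to the oxygen-sensing hydroxylases Egln2 (-0.51, limma adjusted p = 0.136) and Hif1an (-0.90, 0.155), and both fell under the array median (-0.87, limma adjusted p = 0.0275, and -1.25, 0.0448), the only scaling of the 5 run with a call in this list.

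Markers of several cell types differed along with the members, and their part in these results was not tested. Summed levels are given as multiples of the 75th percentile signal of an array, and the brightest probes weigh most in them. Of 7 cholangiocyte markers, 7 rose, with a median of 5.19 and a summed level of 0.513 to 0.714 in normal and 8.58 to 9.96 in fibrotic liver. Of 8 stellate cell and myofibroblast markers, 7 rose, with a median of 2.55 and sums of 2.27 to 3.59 and 10.2 to 21.3. These are cells of the scar and of the new ducts, and no sum overlapped between groups.

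Endothelial cells carry the receptors, and their marker lists moved unequally. Of 8 vascular endothelial markers, 1 rose and 0 fell, with a median of 0.30 and sums of 3.18 to 3.70 and 4.22 to 4.99. Of the same list, Vwf had no named probe and Cd34 was too dim to be tested. Esam, an endothelial adhesion molecule, was the 1 that rose, by 0.98 (limma adjusted p = 0.0417), and it was not called under quantile, loess or array median scaling. Under the array median the median of this list was -0.06, where the median over all genes was -0.42. Of 5 sinusoidal endothelial markers, 0 rose and 0 fell in the limma fit, also at an unadjusted p under 0.05. The median was -0.24, with sums of 9.02 to 11.6 and 6.63 to 11.3. That median was 0.01 under loess and 0.07 under E1A scaling, where the median over all genes was -0.01 and 0.24. The sinusoidal list held 8 genes, and Stab1, Stab2 and Clec4g had no named probe, so the result covers the other genes only. Of 3 lymphatic markers, 2 rose (Pdpn and Ccl21), with a median of 2.92 and sums of 0.459 to 0.768 and 2.66 to 3.02. Pdpn was not above background on any normal array. Pdpn and Ccl21 are not exclusive to lymphatic vessels, and the probe of Prox1, another gene of the list, was too dim to be tested.

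Of 8 hepatocyte markers, 0 rose and 1 fell (Asgr1, -0.76, limma adjusted p = 0.0372, and 4 lower at an unadjusted p under 0.05), with a median of -0.79 and sums of 113 to 121 and 71.1 to 78.8. Over all genes, 4041 of 10864 had an unadjusted p under 0.05, in either direction. Under the array median 6 fell, and under quantile, loess or E1A scaling 0 fell, Asgr1 included (limma adjusted p = 0.425, 0.588 and 0.405). The median over all genes was -0.42 under the array median, -0.11 under quantile, -0.01 under loess and 0.24 under E1A scaling. Of 7 macrophage markers, 0 rose and 1 fell (Cd14, -1.33, limma adjusted p = 0.0103, and 2 higher at an unadjusted p under 0.05), with a median of 0.30 and sums of 12.2 to 15.8 and 13.7 to 19.8. These calls turned with the scaling. Under E1A scaling 2 rose (Cd163 and Marco, limma adjusted p = 0.0394 and 0.0407) and 0 fell, and under loess 1 rose (Cd163, 0.0370) and 1 fell. The median of the macrophage list was -0.05 under the array median, against -0.42 over all genes. Of 4 smooth muscle markers, 1 rose (Tagln, 1.70, limma adjusted p = 0.0465) and 0 fell, with a median of 0.44 and sums of 1.08 to 1.13 and 1.82 to 4.67. Tagln was not called under quantile (limma adjusted p = 0.0636) or array median scaling (0.0639).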

How the data were processed

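Total RNA from liver blocks of 6 rats was labelled with Cy3 and hybridised to 1-colour Agilent arrays, 1 per animal, per the labels' protocols. The authors deposited linear spot intensities from Agilent Feature Extraction 11.5.1.1, background-subtracted in the processed signal column and not recorded as normalized between arrays, per the file headers. From these, log2 processed signals minus the 75th percentile of each array were computed here, control spots were removed and spots of a probe averaged. Testing required at least 0.5 of a probe's spots well above background on every array of 1 group, and values on at least 2 arrays in both groups. Transcript accessions were matched to the RefSeq gene table of GRCr8, which named 18355 of 30367 probes.

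Groups were compared with limma 3.58.1 (lmFit, eBayes) in R 4.3.3, and p-values were Benjamini-Hochberg adjusted over all tested probes, or over all genes for the lists (1 probe per gene, highest mean). The fit was checked on simulated data. An exact permutation test of 3 against 3 cannot go below p = 0.1, so none is given. Precision is limited by the number of arrays.

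The members and lists were chosen with earlier results of these data known. Every member probe is described. From each list the text names up to 2 called genes per direction by size, completed by the smallest p. Of a marker list at most 2 genes are named by that rule. Beside these it names genes called under another scaling, and genes that were faint or could not be tested. The promoter windows and the receptor genes' per-array values and alternatives were added after seeing the data. Alternatives were other scalings, normexp on the median spot and background signals, other filters and thresholds, eBayes with trend and robust settings, the slide row as a term, and leaving out each array. The result of 1 further gene list is not reported here.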

Additional observations from a re-analysis of the deposited data

How the results depend on the processing

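No paired analysis was possible because the labels give no replicate numbers that link a normal rat to a fibrosis rat. Member genes called higher numbered 2 with marked spots left out or kept, and 1 under normexp (Angpt1) or when a probe had to be above background on all 6 arrays, which left Pgf untested. It was 3 under cyclic loess with marked spots kept (Vegfc added), with the slide row and marked spots left out (Nrp1 added), and without fibrosis 2 under either handling (Nrp1 added). Member genes called lower numbered 1 under either handling, and 0 under E1A scaling, an adjusted p under 0.01, or the slide row. That count was also 0 with marked spots left out and no filter or the filter on all 6 arrays, and with marked spots kept and 1 probe per gene. It ran from 0 to 1 when single arrays were left out. The sign of Tek turned with the slide row as a term (0.10, limma adjusted p = 0.919), and no member probe changed sign in any alternative.

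Over all probes with marked spots left out, 1833 were higher and 588 lower. The higher count was 1072 at an adjusted p under 0.01, 911 with the slide row, 862 with the filter on all 6 arrays, and 1192 to 2153 without single arrays. The lower count was 175 under E1A scaling, 154 at 0.01, 1569 under the array median, 1339 with marked spots kept, 323 with no filter, 1116 under quantile scaling, 123 with the slide row, 310 with the filter on all 6 arrays, and 200 to 680 without single arrays (lowest without normal 3). With marked spots kept, 2439 were higher and 1339 lower. The higher count was 1422 at 0.01, 1020 with the slide row and 1514 to 2851 without single arrays. The lower count was 357 under E1A scaling, 385 at 0.01, 3884 under the array median, 799 with no filter, 178 with the slide row and 450 to 1620 without single arrays. The cause of these shifts was not tested. The share of calls that were higher, with marked spots left out, was 75.7% under the 75th percentile, 54.6% under quantile, 46.5% under the array median, 67.8% under loess, 65.1% under normexp and 92.4% under E1A scaling, where the median of all probes stood at 0.00, -0.20, -0.36, -0.07, -0.09 and 0.32. Relative to those medians, Pgf and Angpt1 stayed higher and Vegfa lower. Signal over background limits Vegfb, Angpt2, Nrp2, the second Pgf probe and the normal level of Pgf.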

Other observations

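Of 6 tested endogenous inhibitors of vessel growth, 0 rose and 0 fell in the limma fit, with a median of 0.53. At an unadjusted p under 0.05, 1 was higher and 1 lower, where 4041 of all 10864 genes reached that p in either direction. Thbs2, a matrix thrombospondin, was nearest the threshold on the higher side (0.70, limma adjusted p = 0.0564). Serpinf1, which encodes pigment epithelium-derived factor, was nearest on the lower side (-0.83, limma adjusted p = 0.0715).

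The genes whose levels ran most like a member over the 6 arrays were taken by Pearson r among 10864 genes, as a description without a test, since any pair that differs between the groups in the same way has a high r. For Pgf these were Plxdc1 (0.999), Clca5 (0.998) and Mfsd6l (0.997). For Angpt1 they were Slc27a3 (1.000 after rounding), Slc12a8 (0.998) and Apobec3 (0.998). For Nrp1 they were Aldh1b1 (0.993), Mcpt8l2 (0.984) and Xxylt1 (0.983). For Vegfc they were Efhd2 (0.995), Pdgfrl (0.988) and Neurl1 (0.987), and for Vegfa, by its brightest probe, Zfp2 (0.997), Hpx (0.996) and Psma5 (0.995).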
